A study of Rattus norvegicus with 6 samples.

Results

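The 10 genes described here are markers of microglia, the resident macrophages of the brain, measured in RNA from cultured oligodendrocyte precursor cells (OPCs). They are Aif1, Cx3cr1, Csf1r, C1qa, C1qb, C1qc, Tyrobp, P2ry12, Trem2 and Cd68, and they were taken by gene name from a table of 32883 genes, in which each name was found. The OPCs came from the cerebral cortices of newborn (P0) Sprague Dawley rats, were grown for 7 days with serum, shaken off at 250 rpm and kept in Neurobasal medium, and no transgene or targeted allele was involved. The labels name 2 rat cortices as the starting tissue and do not say how the libraries divide over such preparations. Per the labels, the 3 libraries of each group came from OPCs given DMSO, the solvent, or 5 µM ZJU-37, an inhibitor of the kinase RIPK1 derived from Nec-1s, for 36 h, whereas the paper's methods state a shorter time. The paper's methods also describe a slower shaking step before the OPC harvest that was meant to remove microglia, and the paper calls the libraries both biological repeats and plate wells, so that p-values measure only the spread between these libraries. Poly-A RNA was sequenced to between 13935865 and 24097927 counts per library, which makes a floor of 3 counts equal to 0.124 to 0.215 CPM (counts scaled by library size), for counting error only. All 8 OPC markers examined were measured, with a mean of 1034 CPM for Olig1 and 619 CPM for Pdgfra.

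Microglia arise from the yolk sac, survive through the receptor tyrosine kinase encoded by Csf1r, and clear debris and synapses by phagocytosis. Mixed glial cultures contain them next to OPCs and astrocytes, and they can be carried over when OPCs are shaken off. The 10 markers fall into 4 roles. C1qa, C1qb and C1qc encode the chains of C1q, the recognition molecule of the classical complement pathway, which brain microglia produce. Csf1r binds colony-stimulating factor 1 and interleukin 34, whereas Trem2 encodes a lipid-sensing receptor that signals through the adaptor DAP12, the product of Tyrobp. P2ry12, a purinergic receptor, and Cx3cr1, the receptor of fractalkine, are genes of surveying microglia in the intact brain. Aif1 encodes the actin-binding protein IBA1, and Cd68 a glycoprotein of late endosomes and lysosomes that is abundant in phagocytes of all kinds.

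RefSeq promoter sequences of assembly GRCr8 were matched for 6 of the 10 markers, namely C1qa, C1qb, Csf1r, Trem2, Cd68 and Cx3cr1. They were searched on both strands, over the 250 bases before the annotated start, for GAGGAA, the purine-rich core bound by ETS factors such as PU.1, a regulator of the myeloid lineage. The motif was present in 4 of the 6 (C1qb and Csf1r 2 matches each, Trem2 and Cd68 1 match each) and in 23.3% of 33469 promoters of the same length. The following 4 sequences are given 5′ to 3′ on the strand of the gene because C1qb, Csf1r and Cd68 differed between replicate numbers, Cd68 with another pattern than C1qb and Csf1r, whereas Cx3cr1 did not pass that test. C1qa, like Cx3cr1 without a match, did differ between replicate numbers (adjusted p = 2.64e-04, edgeR). Capitals mark GAGGAA or its complement TTCCTC. They lie at chr5:154407828-154408077 on the minus strand for C1qb, at chr18:56834129-56834378 on the plus strand for Csf1r, at chr10:54882442-54882691 on the minus strand for Cd68 and at chr8:128677067-128677316 on the minus strand for Cx3cr1.
C1qb: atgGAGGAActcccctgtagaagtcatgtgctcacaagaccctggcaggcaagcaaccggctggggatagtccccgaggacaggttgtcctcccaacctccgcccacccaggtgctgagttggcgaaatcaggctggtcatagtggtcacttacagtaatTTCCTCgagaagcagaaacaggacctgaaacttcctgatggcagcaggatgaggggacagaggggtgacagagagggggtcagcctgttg
Csf1r: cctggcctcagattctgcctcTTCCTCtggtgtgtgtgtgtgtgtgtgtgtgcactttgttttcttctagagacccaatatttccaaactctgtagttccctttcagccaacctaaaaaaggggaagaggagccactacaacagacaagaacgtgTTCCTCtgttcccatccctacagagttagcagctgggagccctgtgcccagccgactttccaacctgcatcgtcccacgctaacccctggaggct
Cd68: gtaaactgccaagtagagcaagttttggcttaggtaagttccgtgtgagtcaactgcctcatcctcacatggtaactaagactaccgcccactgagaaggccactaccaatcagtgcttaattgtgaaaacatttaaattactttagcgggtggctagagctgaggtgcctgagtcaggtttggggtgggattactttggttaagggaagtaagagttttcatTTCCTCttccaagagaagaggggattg
Cx3cr1: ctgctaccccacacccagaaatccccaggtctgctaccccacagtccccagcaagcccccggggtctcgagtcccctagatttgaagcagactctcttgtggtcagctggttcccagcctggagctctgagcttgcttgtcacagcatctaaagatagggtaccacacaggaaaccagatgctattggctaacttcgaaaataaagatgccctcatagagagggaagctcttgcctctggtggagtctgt
A match is a description of the letters and not a binding site. Spi1, which encodes PU.1, was measured at a mean of 137 CPM.

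All 10 markers were detected in every library, with between 141 and 15114 counts each, and all passed the filter on low counts that left 14670 genes for testing. Their combined share of the counts ranged from 0.174% to 0.396% per library. To compare levels between genes, the FPKM values of the authors (fragments which are scaled by gene length and library total) were used. C1qa had the highest mean, 465 FPKM over the 6 libraries with a range from 277 to 705, and ranked between place 80 and place 208 among all genes of a library. In ZJU-37 replicate 3 it lay below Cd68, with 373 against 386 FPKM. C1qc, C1qb, Tyrobp and Cd68 followed with means of 351, 347, 339 and 331 FPKM. Their ranges over the libraries overlapped each other and that of C1qa. Within every library, however, C1qa lay above C1qb, C1qc and Tyrobp, whereas the order of C1qc, C1qb, Tyrobp and Cd68 changed between libraries. Csf1r and Aif1 had means of 152 and 151 FPKM, again with overlapping ranges, and Trem2 had a mean of 69.8 FPKM. P2ry12 and Cx3cr1 were far lower, with means of 9.82 and 8.39 FPKM. Their ranges overlapped, from 6.59 to 12.8 FPKM and from 7.70 to 9.04 FPKM, and neither reached the level of Trem2, at least 44.5 FPKM, in any library. P2ry12 ranked between place 6800 and place 9356, and Cx3cr1 between place 8185 and place 8788. The annotated span of P2ry12 overlaps that of Med12l on the opposite strand, which had 3034 counts over the 6 libraries, and it was not stated whether counting used the strand, so that the P2ry12 counts are uncertain.

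To see how the markers varied, their levels were followed library by library on a CPM scale normalized by TMM (the trimmed mean of M-values). Where 3 values of a group are given, here and in what follows, they stand in the order of replicates 1, 2 and 3. The summed level of the 10 markers was 2293, 4036 and 3086 CPM with DMSO. It was 1673, 3499 and 2575 CPM with ZJU-37. The order of the replicate numbers was thus the same in both groups, with replicate 1 lowest and replicate 2 highest, and the groups overlapped. The group means were 3139 ± 873 CPM with DMSO and 2582 ± 913 CPM with ZJU-37 (SD, n = 3 libraries each), a ratio of 0.823. Within the pairs of replicate 1, 2 and 3 the ratio of ZJU-37 to DMSO was 0.729, 0.867 and 0.834. The log2 ratio of the group means was -0.28, and it was -0.0331 without ZJU-37 replicate 1, -0.0588 without DMSO replicate 2, -0.464 without DMSO replicate 1 and -0.539 without ZJU-37 replicate 2. CPM are relative to all counts of a library. In such bulk samples, differences in microglia number, in these RNAs per microglia and in the RNA of other cells cannot be told apart.

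**Figure D1:**
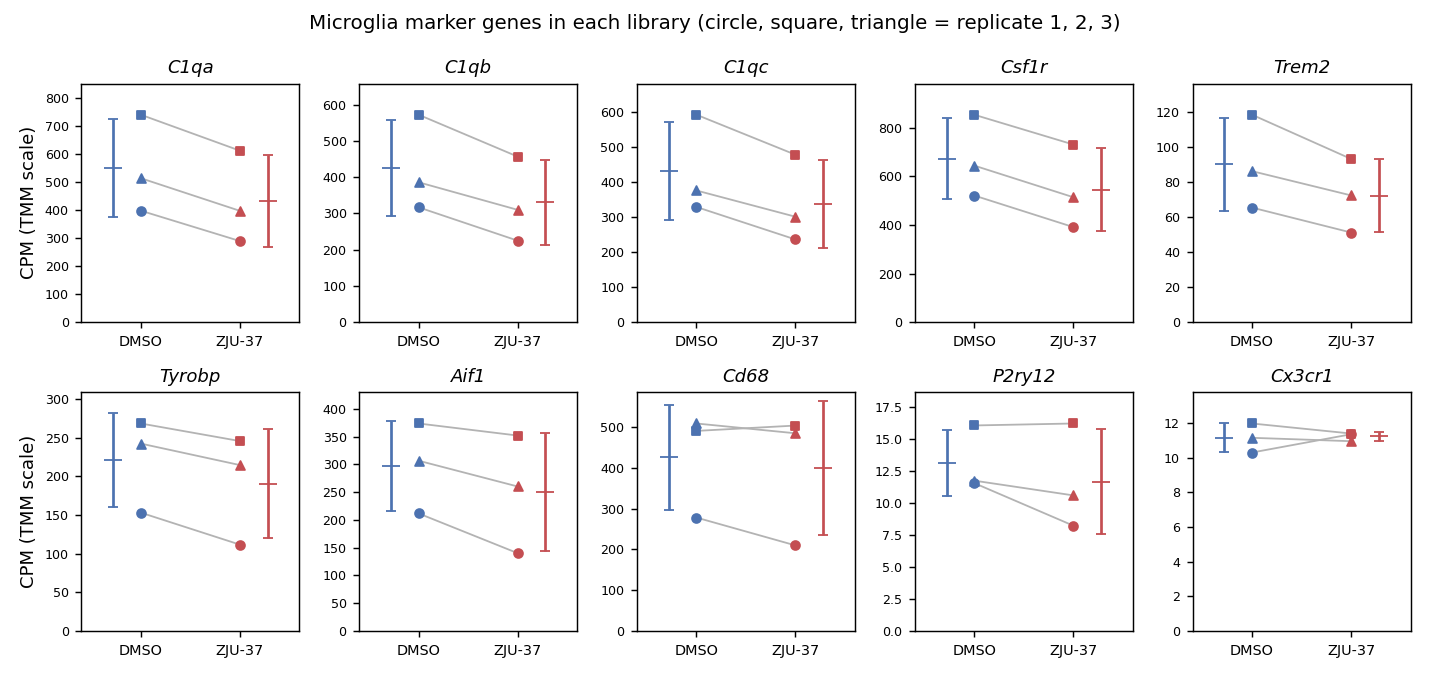
Level of each marker in each library (CPM on the TMM scale, y axes start at 0, x axis gives the group). Circles, squares and triangles are replicates 1, 2 and 3, grey lines join libraries of the same number, and bars to the sides give the mean ± SD (n = 3). For C1qa the line of replicate 2 runs from 739 to 611 CPM and that of replicate 1 from 397 to 289 CPM, whereas for Cx3cr1 all 6 points lie between 10.3 and 11.98 CPM.

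The C1q genes, which lie next to each other on chromosome 5 (minus strand, C1qb from 155246447 to 155252003, C1qc from 155255005 to 155258392 and C1qa from 155261250 to 155264143 in the authors' table, whose build is not given in the sources used here), had similar profiles. C1qa was measured at 397, 739 and 513 CPM with DMSO and at 289, 611 and 396 CPM with ZJU-37. C1qb was measured at 317, 572 and 386 CPM with DMSO and at 225, 457 and 309.8 CPM with ZJU-37. C1qc was measured at 328, 592 and 375 CPM with DMSO and at 236, 477 and 301 CPM with ZJU-37. Each of the 3 genes was lower with ZJU-37 in each pair, while the spread between replicate numbers within a group was wider than the difference within a pair. Without the replicate number in the model, edgeR's quasi-likelihood test gave C1qa a log2 fold change of -0.35, with a 95% interval from -1.13 to 0.44 (standard error, SE, 0.33, adjusted p = 0.558). Without DMSO replicate 2 this estimate was -0.0744, and without ZJU-37 replicate 2 it was -0.657. With the replicate number as a block it was -0.37 (SE 0.05, adjusted p = 7.01e-04, edgeR). C1qb and C1qc had -0.38 and -0.37 in the blocked edgeR fit, with adjusted p-values of 6.62e-04 and 7.08e-04, against adjusted p-values of 0.516 and 0.539 without the block.

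Among the receptors and the adaptor, Csf1r was measured at 521, 854 and 644 CPM with DMSO and at 391, 731 and 514 CPM with ZJU-37. Its blocked log2 fold change was -0.32 (SE 0.05, adjusted p = 0.00167, edgeR), against -0.30 (SE 0.27, adjusted p = 0.532) without the block. Trem2 was measured at 65.5, 119 and 86.3 CPM with DMSO and at 51.2, 93.3 and 72.4 CPM with ZJU-37. Like Csf1r it was lower with ZJU-37 in each pair, by 0.35, 0.35 and 0.25 on the log2 scale in the pairs of replicate 1, 2 and 3, and the groups overlapped. Its blocked log2 fold change was -0.32 (SE 0.05, adjusted p = 0.00187, edgeR), against an adjusted p-value of 0.527 without the block. Tyrobp was measured at 153, 268 and 242 CPM with DMSO and at 112, 246 and 215 CPM with ZJU-37. Its difference was largest in the pair of replicate 1, where the log2 value was -0.45 against -0.13 and -0.18 in the pairs of replicate 2 and 3. The blocked log2 fold change of Tyrobp was -0.25 (SE 0.07, adjusted p = 0.0222, edgeR), and the adjusted p-value without the block was 0.726.

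The 4 remaining markers passed in neither fit. Aif1 was measured at 211, 374 and 306 CPM with DMSO and at 139.9, 352 and 260.0 CPM with ZJU-37. Its ZJU-37 library was the lower one in each pair, and the blocked log2 fold change was -0.30 (SE 0.10, adjusted p = 0.0627, edgeR). Cd68 was measured at 278, 491 and 509.6 CPM with DMSO and at 209.9, 504 and 485 CPM with ZJU-37. Its pairs differed in direction, with log2 differences of -0.41, 0.04 and -0.07, and the blocked log2 fold change was -0.14 (SE 0.08, adjusted p = 0.250, edgeR). P2ry12 was measured at 11.5, 16.0 and 11.7 CPM with DMSO and at 8.22, 16.2 and 10.6 CPM with ZJU-37, with a blocked log2 fold change of -0.20 (SE 0.12, adjusted p = 0.256, edgeR). Cx3cr1 was measured at 10.3, 11.98 and 11.1 CPM with DMSO and at 11.4, 11.4 and 10.95 CPM with ZJU-37. Its 6 libraries spanned a ratio of only 1.163, whereas those of the other markers spanned ratios from 1.97 for P2ry12 to 2.67 for Aif1. The log2 fold change of Cx3cr1 was 0.01 without the block (95% interval from -0.25 to 0.27, adjusted p = 0.965, edgeR).

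**Figure D2:**
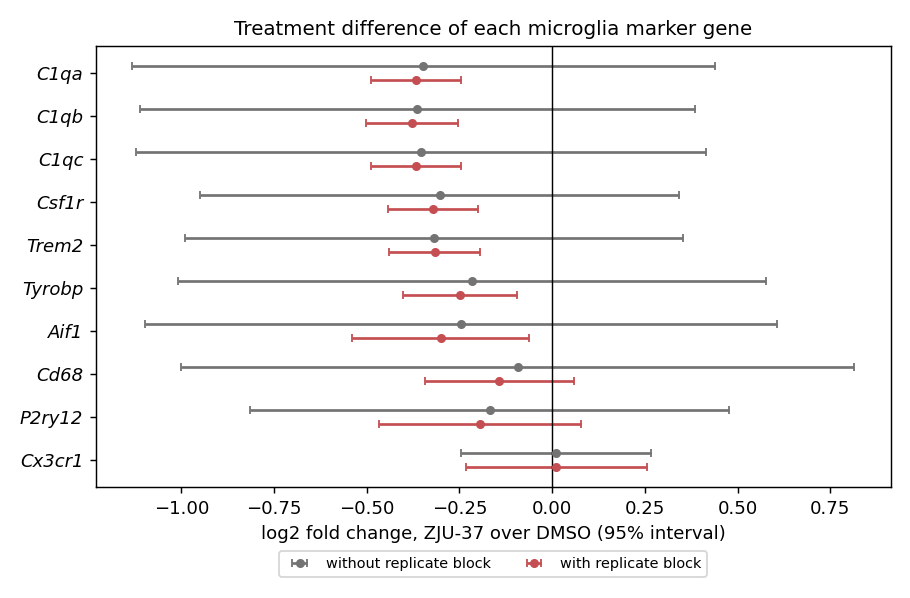
Log2 fold change of each marker between ZJU-37 and DMSO with its 95% interval (x axis), fitted by edgeR without the replicate block (grey) and with it (red). The estimates of the 2 fits lie close together, such as -0.35 and -0.37 for C1qa, while all 10 grey intervals and those of Cd68, P2ry12 and Cx3cr1 in red include 0.

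In total, 0 of the 10 markers passed an adjusted p-value of 0.05 without the block, where 15% of all tested genes passed, and none had an unadjusted p-value under 0.05 in edgeR, DESeq2 or limma. With the block, 6 of the 10 passed, all of them lower with ZJU-37, where 32.1% of all tested genes passed in either direction and 15.9% were lower. The groups overlapped in each of the 10 markers, whereas they did not overlap in 35.2% of all tested genes. The median log2 fold change of the 10 markers was -0.27 without the block, against -0.03 for all tested genes. Lower values with ZJU-37 in all 3 pairs were seen for 7 of the 10 markers and for 33.3% of all tested genes. In the exact two-sided permutation test of 3 libraries against 3, which cannot give a p-value below 0.1, the markers had p-values between 0.4 and 0.8. That test does not use the replicate numbers. When either library of replicate 3 was left out, 4 of the markers were past the threshold in the blocked fit, namely C1qa, C1qb, C1qc and Trem2. Over all genes, 2421 of 14871 passed without DMSO replicate 3 and 2603 of 14877 without ZJU-37 replicate 3. Without any 1 library of replicate 1 or 2, 7 markers passed, which added Aif1. In those fits between 3616 of 14894 and 4921 of 14904 genes passed.

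The replicate numbers were then compared in the blocked model, in which the treatment difference is taken into account. Of the 10 markers, 9 differed between replicate numbers at an adjusted p-value under 0.05 (edgeR's quasi-likelihood F test), where 15.5% of all tested genes did. Cx3cr1 did not pass (adjusted p = 0.828, edgeR), with a log2 difference between replicate 2 and replicate 1 of 0.11 (95% interval from -0.19 to 0.41). The other 9 were each higher in replicate 2 than in replicate 1, by between 0.73 for P2ry12 and 1.07 for Aif1 on the log2 scale. In C1qa the log2 difference between replicate 2 and replicate 1 was 0.99 (SE 0.07), larger than the blocked treatment difference of -0.37. The labels name no batch, culture date or litter that these numbers would stand for.

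The estimates of the 9 markers for replicate 3 against replicate 2 were not alike, but the markers were not tested against each other. Several of their 95% intervals overlapped, such as that of Aif1 with those of both Tyrobp and C1qa. Cd68 was as high in replicate 3 as in replicate 2, with a log2 difference of -0.004 (95% interval from -0.25 to 0.24). Tyrobp lay close below, with a log2 difference between replicate 3 and replicate 2 of -0.17 (95% interval from -0.36 to 0.01). In contrast, the C1q genes had log2 differences between replicate 3 and replicate 2 of -0.58 for C1qa, -0.56 for C1qb and -0.66 for C1qc. Each of these 3 passed the threshold in edgeR's test (adjusted p = 0.00429, 0.00540 and 0.00268), as did Csf1r with -0.46 (adjusted p = 0.0126) and Trem2 with -0.41 (adjusted p = 0.0179). Aif1 and P2ry12 had -0.36 and -0.54 and did not pass (adjusted p = 0.267 and 0.126, edgeR). On the FPKM scale, the ratio of Cd68 to the mean of the 3 C1q genes was 0.692, 0.669 and 1.04 with DMSO and 0.726, 0.845 and 1.25 with ZJU-37. The ratio of Trem2 to the same mean stayed between 0.168 and 0.200. The mix of marker RNAs thus differed in replicate 3 of both groups, and in which cells it differed was not tested.

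**Figure D3:**
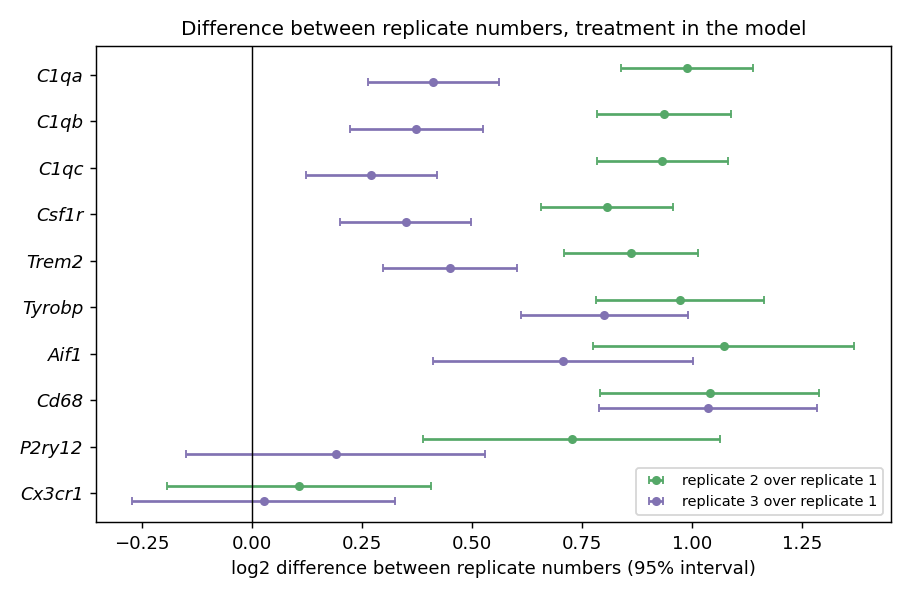
Log2 difference of each marker between replicate numbers (x axis, with 95% interval), replicate 2 over replicate 1 in green and replicate 3 over replicate 1 in purple, from the edgeR model with treatment. Cd68 has nearly equal values, 1.04 and 1.04, whereas C1qc has 0.93 and 0.27 and both Cx3cr1 intervals include 0.

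Further genes of microglia were examined in a list of 40, of which all were tested. Without the block, Slc2a5, a fructose transporter gene, was lower with ZJU-37 and Olfml3, which encodes a secreted glycoprotein, was higher. Slc2a5 had 4.38, 4.97 and 3.72 CPM with DMSO and 0.919, 1.12 and 1.157 CPM with ZJU-37, a log2 fold change of -2.02 (adjusted p = 0.00157, edgeR). Olfml3 had 9.42, 8.30 and 11.1 CPM with DMSO and 18.0, 18.1 and 21.5 CPM with ZJU-37, a log2 fold change of 0.99 (adjusted p = 0.00493, edgeR). The groups of both genes did not overlap, and neither differed between replicate numbers (adjusted p = 0.815 and 0.182, edgeR), unlike 33 of the 40 genes. With the block, 18 of the 40 were lower and 2 were higher. The median log2 fold change of the list was -0.25, and the median log2 difference between replicate 2 and replicate 1 was 0.86. The genes of the list with the most reads, on the CPM scale without regard to gene length, were Adgre1, which encodes the macrophage receptor F4/80, Siglec1, Fcgr3a and Cybb. Per length, their means were 313, 59.8, 291 and 91.1 FPKM, and Fcer1g, which encodes the gamma chain of Fc receptors, had the highest mean of the list, 561 FPKM.

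Genes linked to surveying microglia were chosen from this list after their values had been seen. Tmem119, a transmembrane protein gene used to mark resident microglia, was measured at 21.3, 24.2 and 21.3 CPM with DMSO and at 18.2, 20.8 and 22.8 CPM with ZJU-37. Like Cx3cr1 it did not pass the test between replicate numbers (adjusted p = 0.465, edgeR). Sall1, a transcription factor gene of resident microglia, was measured at 120.2, 113 and 107 CPM with DMSO and at 144, 128 and 134 CPM with ZJU-37. It did not pass between replicate numbers either (adjusted p = 0.304, edgeR), and with the block its log2 fold change was 0.25 (SE 0.05, adjusted p = 0.00591, edgeR). The blocked log2 fold change of Tmem119 was -0.11 (adjusted p = 0.407, edgeR). Gpr34, a lysophosphatidylserine receptor gene, did differ between replicate numbers (adjusted p = 0.00140, edgeR), with 9.13, 19.0 and 17.1 CPM with DMSO and 5.89, 13.5 and 11.6 CPM with ZJU-37. Its blocked log2 fold change was -0.56 (SE 0.10, adjusted p = 0.00264, edgeR). P2ry13, a purinergic receptor gene, did not pass between replicate numbers (adjusted p = 0.0502, edgeR), and its blocked log2 fold change was -0.62 (SE 0.16, adjusted p = 0.0160, edgeR).

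Signalling below TREM2 and DAP12 was followed in 9 genes other than Trem2 and Tyrobp. None passed between the groups without the block, 5 were lower with the block and all 9 differed between replicate numbers. Syk, the kinase recruited by DAP12, was measured at 73.8, 120.5 and 101 CPM with DMSO and at 51.6, 97.6 and 86.6 CPM with ZJU-37. The blocked log2 fold changes were -0.34 for Syk (adjusted p = 0.0033), -0.37 for Vav1, a guanine nucleotide exchange factor (adjusted p = 0.00257), -0.20 for the adaptor Grb2 (adjusted p = 0.0144) and -0.21 for the phosphatase gene Inpp5d (adjusted p = 0.0280) in the same edgeR fit.

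Of 16 phagocytic and lipid-associated genes, 1 passed without the block, Cd9, which encodes a tetraspanin and fell by 0.93 on the log2 scale (adjusted p = 0.00159, edgeR). Cd9 did not pass between replicate numbers (adjusted p = 0.0625, edgeR), and its levels were 235, 189 and 197 CPM with DMSO and 115, 100.2 and 110.5 CPM with ZJU-37. Its log2 difference between replicate 2 and replicate 1 was -0.26, against a median of 0.62 for the list. Which cells expressed Cd9 was not tested. With the block 7 of the 16 were lower, and 13 differed between replicate numbers. The highest means were those of Apoe, a lipid carrier, with 5365 FPKM, Lyz2, a lysozyme gene, with 2201 FPKM, and the lysosomal protease genes Ctsb and Ctsd with 1309 and 1173 FPKM. Apoe had a blocked log2 fold change of -0.39 (SE 0.05, adjusted p = 3.24e-04, edgeR), and astrocytes are known to express it as well.

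Ligands of the member receptors were measured as well. Csf1, a ligand of CSF1R, was measured at 91.2, 86.7 and 110.5 CPM with DMSO and at 64.6, 81.0 and 89.5 CPM with ZJU-37. Its log2 fold change was -0.29 without the block (adjusted p = 0.242, edgeR) and -0.30 with it (adjusted p = 0.0165, edgeR). Il34, the other CSF1R ligand, was near 1 CPM, and Cx3cl1, the fractalkine gene, had a mean of 59.98 CPM and a log2 fold change of -0.01 (adjusted p = 0.978, edgeR). Of 9 further complement genes, 0 passed without the block, and 7 were lower with it. Among them, C3 had a mean of 2321 CPM and a blocked log2 fold change of -0.39 (adjusted p = 7.10e-04, edgeR), and Serping1, the C1 inhibitor gene, had -0.50 (adjusted p = 0.00112, edgeR). Serping1 followed another order of replicates than the C1q genes, with 363, 302 and 629 CPM with DMSO and 221, 239.7 and 458 CPM with ZJU-37. Of 9 cytokine genes, 0 passed without the block, and with it Tgfb1 was the only gene to pass (log2 fold change -0.38, adjusted p = 0.00156, edgeR), while Il1b had -0.38 (adjusted p = 0.392, edgeR).

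**Figure D4:**
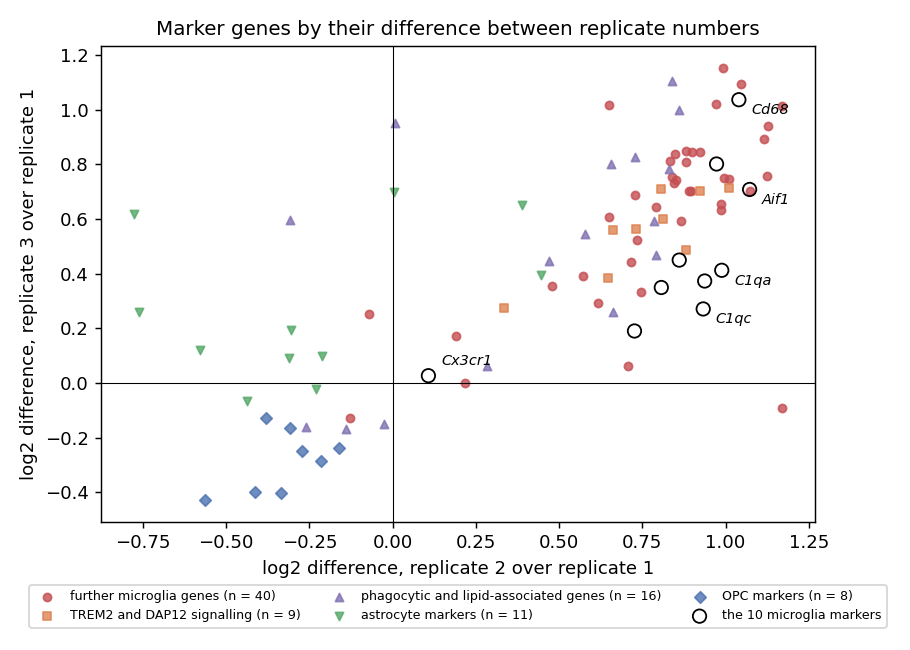
Log2 difference between replicate 2 and replicate 1 (x axis) against that between replicate 3 and replicate 1 (y axis), from the edgeR model with treatment. Shown are the 10 markers (open circles), further microglia genes, genes of TREM2 and DAP12 signalling, phagocytic and lipid-associated genes, astrocyte markers and OPC markers. The OPC markers lie at negative values on both axes, the further microglia genes mostly at positive values on both, with list medians of 0.86 and 0.70, and Cx3cr1 near the origin.

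Markers of other cells moved in these libraries as well, and their part in the microglial differences was not tested. Of 11 tested astrocyte markers, 9 differed between replicate numbers, with a median log2 difference between replicate 2 and replicate 1 of -0.31. Their summed level ranged from 2327 to 2955 CPM with DMSO and from 2033 to 2558 CPM with ZJU-37. Without the block, Aldoc, an aldolase gene, fell by 0.86 (adjusted p = 0.00235, edgeR) and Sox9, a transcription factor gene of glia, rose by 0.53 (adjusted p = 0.0285, edgeR) on the log2 scale. With the block 5 astrocyte markers were lower and 2 were higher. Aqp4, a water channel gene, had the lowest blocked log2 fold change of the list, -0.97 (adjusted p = 2.67e-06, edgeR). Its adjusted p-value was 0.223 without the block. Of the markers with the highest mean CPM, Glul and Slc1a3 had blocked log2 fold changes of -0.12 and -0.01 and did not pass (adjusted p = 0.0916 and 0.870, edgeR). Gfap had -0.75 (adjusted p = 1.55e-04, edgeR). Of the 8 OPC markers, 4 were higher (Pdgfra, Cspg4, Olig1 and Ptprz1, log2 fold changes from 0.54 to 1.10) and 3 were lower (Sox10, Vcan and Nkx2-2, from -1.74 to -0.61), in number the same with the block, and 6 differed between replicate numbers. Their summed level ranged from 4097 to 4791 CPM with DMSO and from 4584 to 6318 CPM with ZJU-37. Markers of oligodendrocytes ranged from 11086 to 22048 CPM in sum with DMSO and from 4665 to 9759 CPM with ZJU-37, and 2 of the 7 passed between the groups without the block, Cnp and Myrf, both lower, with log2 fold changes of -1.36 and -1.69. With the block 5 of the 7 were lower. For macrophages at the borders of the brain, 3 markers were tested, of which 0 passed without the block and Mrc1 was lower with it. Mrc1, the mannose receptor gene, was measured at 20.02, 73.8 and 47.8 CPM with DMSO and at 13.5, 63.6 and 41.6 CPM with ZJU-37. It had a wider spread between replicate numbers than each of the 10 markers, with a log2 difference of 2.06 between replicate 2 and replicate 1. The other tested genes of this list were Pf4, a platelet factor gene, with 110 to 345 counts per library (mean 30.5 FPKM), and Ms4a7 with 133 to 317 counts (mean 6.77 FPKM). Cd163 had 0 counts in all 6 libraries, and Lyve1 and F13a1 had no more than 6 counts and 1 count in any library. The lymphocyte gene Cd3e had 0 counts throughout, whereas Cd79b, the only tested gene of that list, had between 42 and 141 counts per library and differed between replicate numbers (adjusted p = 0.0161, edgeR). Of 3 tested MHC class II genes, 0 passed without the block and Cd74, at a mean of 13.3 CPM, was lower with it. Of 6 neuron markers, Gap43 alone passed without the block, with a log2 fold change of 0.35 (adjusted p = 0.0298, edgeR), and with the block 1 was higher and 2 were lower. None of the tested endothelial and pericyte markers (3), fibroblast markers (5) and lymphocyte markers (1) passed without the block, and 1, 2 and 0 of them were lower with it. Gjb6 of the astrocyte list, and Cldn5 and Rgs5 of the vascular list, were at or near 0 CPM.

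Genes whose profile over the 6 libraries was most like the mean profile of the 10 markers were sought among 13883 tested genes that averaged 1 CPM or more, the markers themselves left out. Likeness was measured as the root mean square difference of log2 CPM, centred on each gene's mean. Among the 10 closest were Cyth4 (0.035), Pou2f2 (0.039), Ehd4 (0.051), Rab3il1 (0.052), Pik3cd (0.052), Ocln (0.053), Ifi30 (0.057), Abcg1 (0.058) and Fyb1 (0.060). Of the markers themselves, Trem2 (0.054) and Csf1r (0.058) lay closest to that mean, and Cd68 (0.25) and Cx3cr1 (0.35) farthest from it. Cyth4, which encodes a guanine nucleotide exchange factor, was measured at 141, 242 and 194 CPM with DMSO and at 105, 215 and 159 CPM with ZJU-37. Pik3cd was the only gene among them that stands in a list used here.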

How the data were processed

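Poly-A RNA of rat OPCs was measured in 6 libraries, 3 with DMSO and 3 with ZJU-37, and groups and replicate numbers were taken from the sample titles. The authors deposited a table of raw counts per gene, and their processing notes name HISAT2 2.0.5, StringTie 1.3.3b and featureCounts 1.5.0. The genome build is not given in the sources used here. The FPKM values were also deposited by the authors, who scaled the counts by gene length and library total. The gene length (another column of the authors) served to describe these. The authors' own comparison columns (fold changes and p-values) were not used, and 0 sample columns were left unmapped.

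Genes with low counts were removed with filterByExpr. The remaining counts were scaled by TMM and compared with the quasi-likelihood test of edgeR 4.0.16 (robust glmQLFit, then glmQLFTest; R 4.3.3) over all 6 libraries, with Benjamini-Hochberg adjustment over 14670 genes and a threshold of 0.05. CPM values are on the TMM scale, and log2 CPM used a prior count of 2. Standard errors were derived by dividing the fitted difference by the root of F. A second model held the replicate number as a block. The numbers come from the labels. After the group mean was subtracted, libraries that share a number correlated across genes with r = 0.39, 0.31 and 0.33, and those of other pairs between -0.27 and -0.01, so the numbers were taken to pair the libraries, although genes are not independent replicates. Deviations within a group cancel out, so positive values for shared numbers push the others down, which are no separate evidence. The pairing was thus read from the same data, and neither the labels nor the paper state it. Alternatives were DESeq2 1.42.0, limma 3.58.1 (voom, and log2 FPKM with pseudocounts of 1 and 0.1), other size factors, other filters on low counts and leaving out each library. The model with the block was also run without each library and with library sizes alone, which was chosen after seeing the data. The scripts were tested on simulated data. The planted differences were larger than those of the markers between the groups, so differences of the size of the markers were not tested there. No 2 libraries were alike enough to be counted as 1 sample.

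The markers and lists were chosen with earlier results of these data known. From each list the genes passing without the block and up to 4 others with the highest mean CPM were named, and further names were chosen after their values were seen. These further names are Spi1, Tmem119, Sall1, Gpr34, P2ry13, Tgfb1, Cd163, Lyve1, F13a1, Cd3e, Gjb6, Cldn5, Rgs5 and Fcer1g. Cd209b, Pecam1 and Cd79a were not analysed here. Of the genes most like the markers, 1 is not reported here. Promoters are from RefSeq.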

Additional observations from a re-analysis of the deposited data

How the results depend on the processing

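Without the replicate number in the model, 0 of the 10 markers passed under every alternative (DESeq2, limma, other size factors, other filters and leaving out each library), and 6 passed with the replicate block. Over all genes, 2201 passed without and 4705 with the block, and between 1306 (without DMSO replicate 2) and 1927 when 1 library was left out. Of 150 log2 fold changes of single markers under these alternatives, 8 turned direction, and 6, those with the block, newly passed the threshold. With 1 library left out, the log2 fold change of Aif1 ran from -0.548 without ZJU-37 replicate 2 to 0.0553 without ZJU-37 replicate 1, and that of P2ry12 from -0.451 to 0.0426 without the same libraries. That of Tyrobp ran from -0.422 without DMSO replicate 1 to 0.0697 without ZJU-37 replicate 1, that of Cd68 from -0.323 to 0.228 without the same libraries, and that of Cx3cr1 from -0.0422 without DMSO replicate 1 to 0.0656 without DMSO replicate 2. Those of C1qa, C1qb, C1qc, Csf1r and Trem2 kept their sign and were lowest without ZJU-37 replicate 2, at -0.657, -0.644, -0.662, -0.547 and -0.519, and nearest 0 without DMSO replicate 2, at -0.0744, -0.0886, -0.0587, -0.0953 and -0.0705. Without DMSO replicate 2, P2ry12 was at 0.0041 and Cd68 at 0.0214, and without DMSO replicate 3 Cd68 was at 0.0550. The log2 ratio of the summed markers was -0.28 and ran from -0.54 without ZJU-37 replicate 2 to -0.0331 without ZJU-37 replicate 1. It was -0.0588 without DMSO replicate 2 and -0.46 without DMSO replicate 1, and it was between -0.29 and -0.26 under other scalings, which included leaving Csf1r out. Between replicate numbers, 8 or 9 markers passed with library sizes alone, with other filters and without each library, the alternatives run for this test. With the block, between 4 and 7 markers passed when 1 library was left out, a fit that rests on 2 pairs. Over all genes, between 2421 and 4921 passed in these fits. With library sizes alone 7 markers passed, which added Aif1, where 4891 of 14670 genes passed. With 3 libraries per group the spread is known with little precision. The cause of these changes was not tested.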
